A study of Rattus norvegicus with 28 samples.

Results

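Levels of 9 genes of extracellular proteolysis and matrix remodelling, Timp1, Mmp3, Mmp9, Mmp12, Mmp14, Plau, Plaur, Tnc and Spp1, were measured in the rat hippocampus 24 h after experimental brain injury. The genes were chosen by name, and their probes were found on 1-colour Agilent rat gene expression arrays through the accession given for each probe, which gave 10 of the 30367 non-control probes. Plaur had 2 probes and each other gene had 1. Adult male Sprague-Dawley rats received a sham injury (Sham, n = 2) or severe fluid percussion traumatic brain injury, in which a pulse of fluid is driven against the exposed dura. Injured rats were given no antidepressant (TBI, n = 3) or were treated 1 h after injury with imipramine (TBI+Imipramine, n = 3), Prozac, which is fluoxetine (TBI+Prozac, n = 3), or Zoloft, which is sertraline (TBI+Zoloft, n = 3). RNA came from the whole hippocampus, so that a larger number of cells of a type and more RNA per cell cannot be told apart.

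Brain cells sit in a matrix of hyaluronan, lectican proteoglycans and tenascins, with a basement membrane around vessels. After injury, matrix metalloproteinases and the plasminogen system cut this matrix, and tissue inhibitors of metalloproteinases limit the cutting. Urokinase (Plau) bound to its receptor (Plaur) turns plasminogen into plasmin at the cell surface, and plasmin in turn activates several metalloproteinases. Tenascin-C (Tnc) and osteopontin (Spp1) are secreted glycoproteins laid down in remodelling tissue, where they bind integrins and, for osteopontin, CD44. In the injured brain these genes are known from reactive astrocytes, microglia, vessel cells and white blood cells that enter the tissue.

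A promoter window of 250 bases before to 50 bases after the gene start was given for 7 of the 9 genes, from RefSeq on the rat assembly GRCr8, and not for Mmp9 or Mmp14. The AP-1 motif, the letters TGANTCA bound by Fos and Jun factors, is a textbook element of metalloproteinase promoters, often together with an Ets motif, here CAGGAAG. Of the 7 windows, searched on both strands, 3 held the AP-1 letters, against 7.33% of 33469 rat promoter windows of the same length. The Ets letters were in 2 of the 7, Timp1 and Mmp3, against 12.5%, and an NF-kB motif was in none, against 7.51%. A match is a description of the sequence and no evidence that a factor was bound. The AP-1 matches, shown in capitals with 30 bases on each side because the motif is a known element of this family, began 71 bases before the start of Mmp3, 87 before that of Mmp12 and 83 before that of Plaur:
Mmp3 (GRCr8 chr8:12925180-12925246, plus strand): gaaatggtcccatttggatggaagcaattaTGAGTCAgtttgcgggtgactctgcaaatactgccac
Mmp12 (GRCr8 chr8:12866535-12866601, plus strand): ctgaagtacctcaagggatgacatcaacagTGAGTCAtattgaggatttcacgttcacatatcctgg
Plaur (GRCr8 chr1:89181250-89181316, plus strand): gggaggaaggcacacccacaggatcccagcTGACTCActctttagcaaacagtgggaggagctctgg
The windows of Plau and Tnc, which like these 3 genes were not above background in Sham, held no AP-1 match. The Timp1 window held 2 Ets matches and no AP-1 match, and the nearer Ets match, in capitals, began 95 bases before the start:
Timp1 (GRCr8 chrX:3771181-3771247, minus strand): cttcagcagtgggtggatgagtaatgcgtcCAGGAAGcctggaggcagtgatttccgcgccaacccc

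Between 14676 and 18196 of 30367 probes were above background on an array. All levels below are log2 of the processed brightness after division by the array's own 75th percentile over its probes above background, so that 0 is a bright probe and values under about -6 are near the detection limit. Levels are compared only within a gene, since probes differ in brightness for reasons other than the amount of RNA. The Sham arrays lay alone on a slide that was scanned on another day, and the TBI arrays shared a slide with TBI+Prozac replicate 1, while the other 8 drug arrays shared the remaining slide. Slide and injury therefore cannot be told apart in comparisons with Sham. At least 5 of 6 measured neuron markers were above background on every array of each group, although Prox1, a marker of dentate granule cells, was above background on no array and no probe was matched to Rbfox3. Replicates were separate rats, and with 2 or 3 a group their number limits the precision of every value.

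A gene was tested where its probe was above background on all arrays of 1 group or more, which held for 8 of the 9 genes and not for Mmp3 or the second Plaur probe. Mmp12 and Plaur met this through TBI+Imipramine alone. After TBI, 6 of the 8 rose against Sham in limma's test at an adjusted p under 0.05, and none fell, where 8.3% of the 17322 probes tested were called higher and 8.32% lower. The genes called were Timp1, Mmp9, Plau, Plaur, Tnc and Spp1. The median log2 difference of the 8 genes was 2.38, and that of all probes tested was 0.0015. For 7 of the 8, every TBI array lay above both Sham arrays, as for 20.9% of all probes tested, the exception being Mmp12. Leaving out Sham replicate 1 left 3 of the 6 calls, those of Timp1, Plau and Plaur. With the normexp background correction, which compresses dim signals, the calls of Timp1 and Spp1 alone remained, and Mmp9, Plau, Plaur and Tnc had log2 differences of 0.52, 0.34, 0.41 and 0.25.

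**Figure D1:**
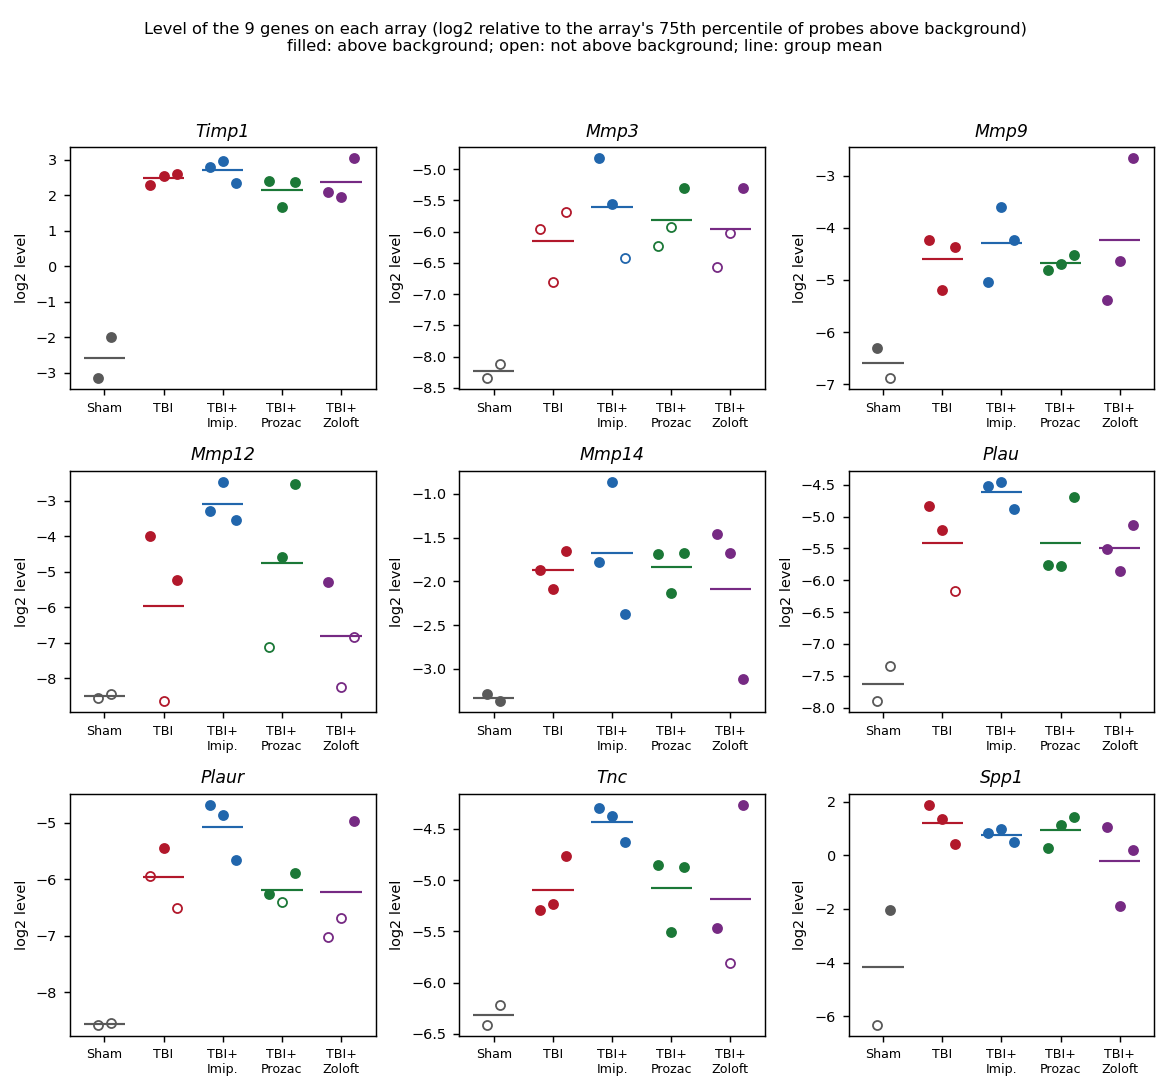
Level of each gene on each of the 14 gene expression arrays, as log2 relative to the array's 75th percentile of probes above background, with a panel and its own vertical axis for each gene. Points are rats, filled where the probe was above background, lines are group means, and Imip. stands for imipramine. Timp1 lay at -1.99 or lower in Sham and at 1.68 or higher in every injured rat, while Mmp12 spread from -8.65 to -2.46 among injured rats.

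Timp1, the secreted inhibitor that blocks most matrix metalloproteinases, had the clearest separation. Its level was -3.15 and -1.99 in the Sham rats. It was 2.30, 2.54 and 2.60 in TBI, 2.80, 2.97 and 2.34 in TBI+Imipramine, 2.40, 1.68 and 2.37 in TBI+Prozac, and 2.10, 1.95 and 3.04 in TBI+Zoloft. The lowest injured rat lay 3.67 above the higher Sham rat, a gap larger than the whole range of the injured rats, 1.36. Timp1 rose after TBI by 5.04, with an SE of 0.38 (adjusted p = 2.77e-05 in limma's test). This is 33-fold, and the 95% interval runs from 18.6-fold to 58.6-fold. It was above background on all 14 arrays, and the difference passed under every other setting that was fitted with limma and without each array in turn, with a range of 4.46 to 5.63.

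Spp1, which encodes osteopontin, was the other large difference, with much less agreement between rats. The Sham rats gave -6.31, which was not above background, and -2.03, a distance of 4.28. TBI gave 1.88, 1.34 and 0.42, TBI+Imipramine 0.83, 0.97 and 0.49, TBI+Prozac 0.28, 1.11 and 1.42, and TBI+Zoloft 1.05, -1.90 and 0.18. All injured rats lay above both Sham rats, but TBI+Zoloft replicate 2 did so by 0.129 only. Spp1 rose after TBI by 5.38 (SE 1.04, limma adjusted p = 0.00502). Without Sham replicate 1 the difference was 3.24 and did not pass (limma adjusted p = 0.0507), and without Sham replicate 2 it was 7.52. The summed linear level of 8 choroid plexus markers, of which 3 passed the filter and were tested, was 0.611 in Sham replicate 1 and 29.4 in Sham replicate 2. It spanned 0.22 to 109 among the injured rats, and no marker tested was called in any comparison. Across the 12 injured rats the log2 of this sum and the Spp1 level had a Pearson r of -0.49 and a Spearman rho of -0.51. For Mmp14 these were 0.54 and 0.62, and for the other genes r lay from -0.19 to 0.26. The part of the choroid plexus in these values was not tested.

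Urokinase and its receptor were not above background in Sham and came into range in injured rats. The Plau level was -7.90 and -7.35 in Sham, neither above background. It was -4.84, -5.21 and -6.17 in TBI, of which the last was not above background, and -4.51, -4.45 and -4.89 in TBI+Imipramine. In TBI+Prozac Plau lay at -5.76, -5.78 and -4.69, and in TBI+Zoloft at -5.50, -5.86 and -5.13. Plau rose after TBI, with a fitted difference of 2.22 (SE 0.40, limma adjusted p = 0.00365), and the mean of the 3 TBI arrays, 2 of them above background, lay 1.93-fold above the detection limit in Sham. For Plaur the Sham rats gave -8.57 and -8.54, and TBI gave -5.94, -5.44 and -6.50, where only the second was above background. TBI+Imipramine gave -4.68, -4.86 and -5.65, all above background. In TBI+Prozac Plaur lay at -6.26, -6.40 and -5.88, and in TBI+Zoloft at -7.02, -6.68 and -4.97, where replicate 3 alone was above background. Every injured rat lay above both Sham rats, the nearest by 1.52. Plaur rose after TBI by a fitted 2.60 (SE 0.51, limma adjusted p = 0.00543). The TBI mean lay 1.32-fold above the detection limit in Sham, but with 1 of 3 arrays above background this is no firm lower bound. Its second probe was above background only in TBI+Imipramine replicates 1 and 2 and so was not tested, and it measured 2.31 higher in TBI than in Sham, with no overlap.

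Tnc, a matrix glycoprotein of developing and injured brain, was not above background in Sham, at -6.41 and -6.22. It was -5.29, -5.23 and -4.76 in TBI, all above background, and -4.30, -4.38 and -4.63 in TBI+Imipramine. TBI+Prozac gave -4.85, -5.50 and -4.87 and TBI+Zoloft -5.47, -5.81 and -4.27. Every injured rat lay above both Sham rats, the nearest by 0.411. Tnc rose after TBI by a fitted log2 difference of 1.22 (SE 0.37, limma adjusted p = 0.0404). The TBI mean lay 2.24-fold above the detection limit in Sham, or above the measured level where that was higher. The 2.24-fold carries no sampling error, so that a smaller rise is possible. The call was not firm, being lost in 9 of the 14 fits that left out an array (limma adjusted p up to 0.18) and under 3 of the 9 other settings.

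The metalloproteinases differed from each other in how far they could be measured. Mmp9, the gelatinase of neutrophils and activated brain cells, gave -6.30 and -6.88 in Sham and -4.23, -5.18 and -4.37 in TBI, where the second Sham rat was not above background and all injured rats were. TBI+Imipramine gave -5.05, -3.60 and -4.23, TBI+Prozac -4.82, -4.69 and -4.53, and TBI+Zoloft -5.38, -4.63 and -2.67, the highest of all. Its rise after TBI, 2.00 (SE 0.63), lay at the edge of the threshold (limma adjusted p = 0.0493). Mmp14, a membrane-bound enzyme that activates other metalloproteinases, was above background on all 14 arrays. It gave -3.28 and -3.37 in Sham and -1.88, -2.09 and -1.66 in TBI, with no overlap, a difference of 1.46 that narrowly missed the threshold (SE 0.47, limma adjusted p = 0.0509). TBI+Imipramine gave -1.78, -0.86 and -2.38, TBI+Prozac -1.69, -2.14 and -1.68, and TBI+Zoloft -1.46, -1.68 and -3.12, and all of these lay above both Sham rats, the last by 0.163. Neither result was firm: of the other settings tried, 6 brought Mmp14 past the threshold and 6 took Mmp9 back over it. Of the 14 fits that left out an array, 4 called Mmp14 and 12 lost the call of Mmp9 (limma adjusted p up to 0.259).

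Mmp12, the elastase of macrophages, varied most between rats. It was -8.56 and -8.43 in Sham, at the limit of detection, and -3.99, -8.65 and -5.24 in TBI. TBI replicate 2 was thus as low as Sham. TBI+Imipramine gave -3.28, -2.46 and -3.53, all above background, TBI+Prozac -7.12, -4.58 and -2.53, and TBI+Zoloft -5.30, -8.25 and -6.85. The difference between TBI and Sham was 2.53 (SE 1.37, 95% interval -0.438 to 5.5, limma adjusted p = 0.234), and the groups overlapped. Mmp3, or stromelysin, was above background in neither Sham nor TBI, at -8.34 and -8.12 against -5.95, -6.81 and -5.69. It reached background in 4 of 12 injured rats, TBI+Imipramine replicates 1 and 2, TBI+Prozac replicate 3 and TBI+Zoloft replicate 3, and was not tested. Every injured rat was 1.31 or more above the higher Sham rat, but a value below background gives only a bound.

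Treated rats were also set against Sham, which they share with the TBI comparison. All 8 genes rose in TBI+Imipramine, where 19.8% of probes were called higher, with a median difference of 3.25. Of these, Mmp12 and Plaur were tested only because every imipramine array was above background. Their entry into this count thus depended on a high level in this group. In TBI+Prozac 6 rose, against 11.7% of probes, and Mmp9 (1.91, limma adjusted p = 0.0621) and Mmp12 (3.75, 0.0861) did not pass. In TBI+Zoloft 5 rose, against 4.16% of probes, and Mmp12 (1.69, 0.508), Mmp14 (1.24, 0.139) and Tnc (1.13, 0.0907) did not pass. Timp1 was higher than in Sham by 5.27 in TBI+Imipramine, 4.72 in TBI+Prozac and 4.93 in TBI+Zoloft (SE 0.38 each), and Spp1 by 4.93, 5.10 and 3.94 (SE 1.04 each). Mmp12 was higher in TBI+Imipramine than in Sham (limma adjusted p = 0.0143), and its TBI+Imipramine mean lay 9.64-fold above the detection limit in Sham. The TBI+Imipramine means of Plau and Plaur lay 3.35-fold and 2.45-fold above that limit. For Tnc it was 3.54-fold, with the measured Sham level used where that was higher. These fold values carry no sampling error, so that smaller rises are possible. The Mmp3 mean, with 2 of 3 imipramine arrays above background, lay 1.69-fold above the detection limit in Sham, without a test. Without Sham replicate 1 the calls numbered 4, 1 and 1 for imipramine, Prozac and Zoloft, and without Sham replicate 2 they numbered 5, 3 and 3. Without TBI+Imipramine replicate 2 there were 5 for imipramine. The Zoloft number was also 3 without any single TBI, TBI+Prozac or TBI+Imipramine array, and with no filter on dim probes.

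**Figure D2:**
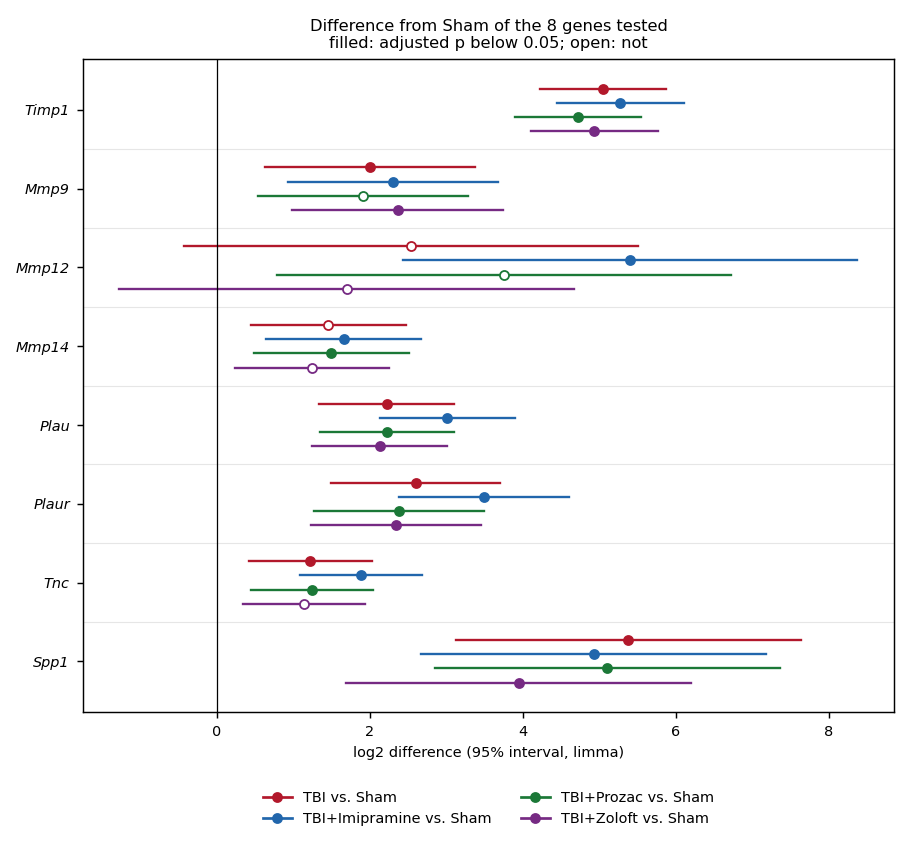
Log2 difference from Sham of the 8 genes tested, for TBI and each drug group, with the 95% interval of limma's fit. Filled points passed an adjusted p of 0.05. Timp1 lay between 4.72 and 5.27 in all 4 groups, and the intervals of Mmp12 in TBI and in TBI+Zoloft cross 0.

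The question of whether a drug changed these genes after injury was addressed by comparing each drug group with TBI. No gene of the 8 was called in limma's test for TBI+Imipramine, TBI+Prozac or TBI+Zoloft, where 2.85%, 0.00577% and 1.38% of all probes were called. At an unadjusted p under 0.05 there were 2, 0 and 0, where 19.7%, 10.1% and 15.2% of probes were. The number of probes called depended on the setting. The 494 for imipramine became 2 with slide as a term, 50 under quantile normalization and 13 to 582 when an array was left out, the lowest without TBI+Imipramine replicate 2. The 239 for Zoloft became 2, 803 and 1 to 382 in the same order, the lowest without TBI+Zoloft replicate 3, and the 1 for Prozac reached 122 without TBI+Prozac replicate 1. No gene of the 8 was called in any of these limma fits. The median difference of the 8 genes was 0.48 for imipramine, where all probes had a median of 0.199, -0.04 for Prozac against 0.146, and -0.16 for Zoloft against 0.0146. The absence of a call does not show that the groups were alike. For Timp1 the 95% interval of the difference from TBI ran from -0.51 to 0.97 for imipramine, from -1.07 to 0.41 for Prozac and from -0.85 to 0.63 for Zoloft. For Spp1 it ran from -2.47 to 1.57, from -2.29 to 1.74 and from -3.45 to 0.58.

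Imipramine gave the highest group mean for 7 of the 9 genes, the exceptions being Mmp9 and Spp1, as it did for 42.5% of all probes tested. Mmp12 was 2.87 higher than in TBI, with no overlap between the groups (SE 1.22, unadjusted p = 0.0365, limma adjusted p = 0.221). Plau was 0.79 higher (SE 0.36, unadjusted p = 0.0488, limma adjusted p = 0.25), Plaur 0.90 (SE 0.46, limma adjusted p = 0.297) and Tnc 0.66 (SE 0.33, limma adjusted p = 0.29), the last again with no overlap. The second Plaur probe, not tested and above background in no TBI array, measured only 0.21 higher, with overlap. These differences stand beside a shift of the median of all probes of 0.199 in the same direction. The share of all probes with no overlap was not counted for this comparison. The lack of overlap therefore does not set these genes apart from other probes. Mmp12 and Plaur also passed the filter through TBI+Imipramine alone, which favours a high value in that group. TBI and imipramine arrays lay on different slides. With the slide as a term, which leaves TBI+Prozac replicate 1 as the only link between drug and TBI arrays, the Mmp12 difference turned to -0.70, while those of Plau, Plaur and Tnc were 0.27, 0.78 and 0.99. On the slide that it shared with the TBI rats, TBI+Prozac replicate 1 differed from their mean by -0.08 in Timp1, -0.93 in Spp1 and -1.16 in Mmp12.

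Imipramine, a tricyclic drug, and sertraline, a selective serotonin reuptake inhibitor, were given at the same dose by the same route and their 6 arrays lay on a single slide, so that this pair could be compared without that limit. None of the 8 genes was called, where 5.29% of probes were, and 4 had an unadjusted p under 0.05, as had 23.6% of probes. The 917 probes called became 137 under quantile normalization, and 0 to 1325 when an array was left out, with 1 without TBI+Imipramine replicate 1, 0 without replicate 2 and 58 without TBI+Zoloft replicate 2. Mmp12 was 3.71 higher after imipramine, with no overlap (SE 1.22, 95% interval 1.05 to 6.37, limma adjusted p = 0.089). Plau was 0.88 higher, also with no overlap (SE 0.36, 95% interval 0.10 to 1.67, limma adjusted p = 0.16). For this pair too, the share of all probes with no overlap was not counted. Plaur was 1.16 higher (SE 0.46, limma adjusted p = 0.146) and Tnc 0.74 (SE 0.33, limma adjusted p = 0.192). For these last genes TBI+Zoloft replicate 3 lay among the imipramine rats or above them, and without it both passed, Plaur at 1.79 (limma adjusted p = 0.025) and Tnc at 1.2 (0.0285). Leaving out the highest Zoloft rat widens these differences by construction. Each gene passed in only 1 of the 14 fits that left out an array and in 0 of the 9 other settings fitted with limma. Timp1 differed by 0.34 (95% interval -0.40 to 1.08). A test for any difference among the 3 drugs called none of the 8 genes, where 3.18% of probes were called, and its smallest adjusted p was that of Mmp12 (limma F test, 0.181). Mmp12 and Plaur were in these tests only because all imipramine arrays were above background.

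**Figure D3:**
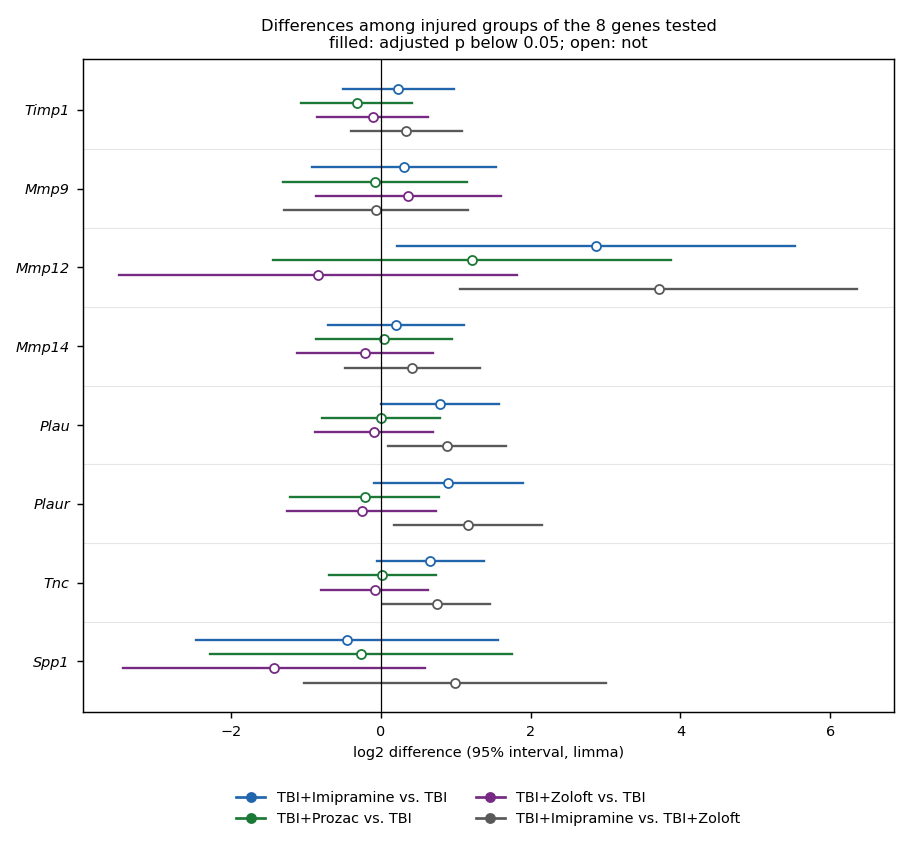
Log2 difference of the 8 genes tested between each drug group and TBI, and between TBI+Imipramine and TBI+Zoloft, with the 95% interval of limma's fit. Open points did not pass an adjusted p of 0.05, and none did. The differences of Mmp12 reach 2.87 and 3.71, with wide intervals, and those of Timp1 lie between -0.33 and 0.34.

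Single rats stood out across several genes. TBI+Zoloft replicate 3 had the highest level of the 12 injured rats in Timp1, Mmp9 and Tnc and the lowest in Mmp14, where its level of -3.12 was close to the Sham values. TBI+Imipramine replicate 2 was highest in Mmp12, Mmp14 and Plau, and replicate 1 in Mmp3 and Plaur. TBI replicate 1 was highest in Spp1. Across the 12 injured rats the levels of Timp1 and Tnc varied together (Pearson r = 0.87, Spearman rho = 0.90, r = 0.86 without the 2 arrays farthest from the median of Timp1, and 0.92 over the 8 arrays of the second slide), as did those of Timp1 and Plaur (r = 0.79, rho = 0.73, and 0.81 and 0.88 in the same order). Timp1 and Spp1 did not (r = 0.13, rho = -0.24). These values describe 12 arrays that share groups, slides and scaling, and carry no p-value. Plaur was above background on 7 of the 12.

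By the same measure, over 14352 probes above background on all 12 arrays, the named genes most like Timp1 were Ubtd1 (r = 0.93), Nol12 (0.93), Slc10a3 (0.92), Lmna (0.91) and Acp5 (0.90). Those most like Spp1 were Map3k14 (r = 0.87), Rhbdf1 (0.85), Ptpro (0.79), Insig2 (0.78) and Dchs1 (0.75). For the latter the rank correlations were lower, from 0.50 to 0.67, and the Spp1 level of TBI+Zoloft replicate 2, -1.90, lay 2.08 under the next lowest. Both lists are the top of 14352 correlations over 12 arrays. High values are thus favoured by the choice itself, and neither list was tested.

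Some markers of white blood cells also rose after TBI. Of 11 listed markers of blood-derived myeloid cells, 9 had a probe and 5 were measured. After TBI 3 of the 5 rose against Sham, where 8.3% of all probes tested were called higher. The genes called were the neutrophil and monocyte genes S100a8, by 3.33, and S100a9, by 4.0, and the lysozyme gene Lyz2, by 1.49. The other measured markers were not called, and the median difference of the 5 was 1.49. The same share of all probes stands beside the microglia and astrocyte calls below. The summed linear level of all 9 markers with a probe, and not only of the 5 measured, was 1.09 to 1.23 in Sham and 3.61 to 5.38 in TBI. It was 5.26 to 9.95 in TBI+Imipramine, 3.18 to 7.16 in TBI+Prozac and 1.42 to 6.48 in TBI+Zoloft. The neutrophil elastase gene Elane, which is in the sum, was above background on no array, and no probe was matched to Mpo. Across the 12 injured rats the log2 of this sum varied with the levels of Plaur (r = 0.86, and 0.81 without the 2 arrays farthest from the median sum), Plau (0.68 and 0.78), Tnc (0.65 and 0.57), Timp1 (0.65 and 0.60) and Mmp3 (0.62 and 0.56). Plaur was above background in 7 of the 12 and Mmp3 in 4, so that these values rest in large part on levels near the detection limit. It varied less with Mmp9 (0.46 and 0.096) and Mmp12 (0.32 and 0.29), and hardly with Mmp14 (-0.028 and -0.20) or Spp1 (-0.0022 and 0.078). For 6 measured microglia markers the sum was 3.19 to 4.0 in Sham and 4.73 to 5.48 in TBI, with a call for Itgam alone (1.05, limma adjusted p = 0.0254). The astrocyte gene Gfap rose by 1.88 (limma adjusted p = 0.0142), and the 5 other astrocyte markers were not called. The part of these cell types in the levels of the 9 genes was not tested.

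A wider list of 106 genes of the pathway, with the 9 genes left out, had a probe for 90, and 66 were tested. After TBI 14 of the 66 rose and 5 fell, where 8.3% of all probes tested were called higher and 8.32% lower. The share of the list that fell was thus no higher than that of all probes. The same shares stand beside the class counts that follow. The median difference was 0.39 against 0.0015 for all probes. Without either Sham array the 19 calls became 9. In the plasminogen system 2 of 8 rose and 1 fell. Anxa2 and S100a10, which together bind plasminogen at the cell surface, rose by 2.68 and 2.42 (SE 0.23 and 0.21). The gene of plasminogen itself, Plg, fell by 1.42 (SE 0.19, limma adjusted p = 0.000681).

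Among the other metalloproteinases 1 of 7 rose and 2 fell. Mmp19 rose by a fitted 3.12 (SE 0.22, limma adjusted p = 2.68e-05), and its TBI mean lay 2.88-fold above the detection limit in Sham. The membrane-type genes Mmp15 and Mmp17 fell by 0.60 and 0.50 (SE 0.16 each). Of the ADAM and ADAMTS proteinases 3 of 8 rose, Adamts1, which cuts lecticans, by 2.50, and the membrane-bound Adam17 and Adam15 by 0.94 and 0.74. Of 4 other inhibitors of metalloproteinases 2 were tested and neither was called, although a missed threshold does not show that they did not change. The lecticans and link proteins of the hyaluronan matrix gave 2 falls in 7, Hapln1 by 1.36 and Bcan, which encodes brevican, by 0.83, and no rise.

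Matrix proteins and their receptors made up the rest. Of 11 matricellular and adhesive glycoproteins 4 rose, led by Tgfbi (2.16), Thbs4 (2.05) and fibronectin Fn1 (1.81). The TBI mean of Thbs4 lay 2.30-fold above the detection limit in Sham. Of 7 matrix receptors 3 rose, syndecan-1 Sdc1 by 3.51, the hyaluronan and osteopontin receptor Cd44 by 2.77 and the integrin chain Itgb1 by 0.68. The crosslinking enzyme Tgm2 rose by 2.35, as 1 of 5 of its class. None of 11 basement membrane and collagen genes was called, with a median difference of 0.65.

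**Figure D4:**
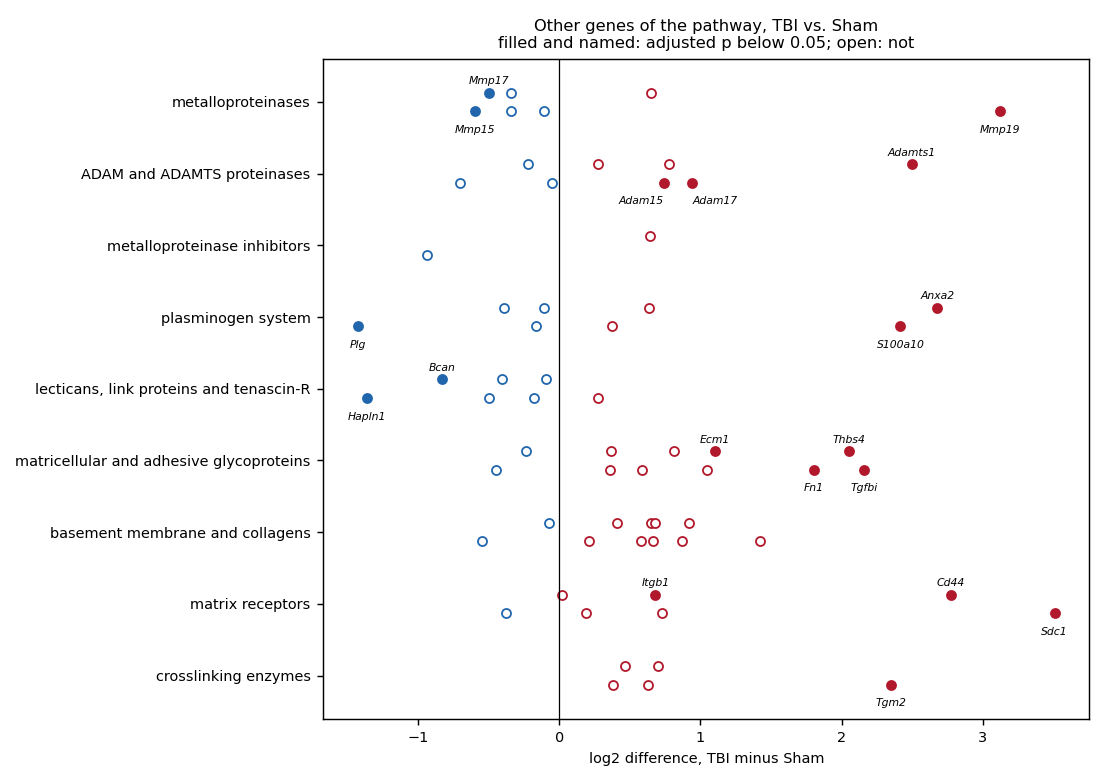
Log2 difference between TBI and Sham of 66 other pathway genes tested, by class. Filled and named points passed an adjusted p of 0.05 in limma's test, 14 of them higher after TBI (red), such as Sdc1 at 3.51, and 5 lower (blue), such as Plg at -1.42.

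The same list gave 23, 18 and 11 genes higher than Sham in TBI+Imipramine, TBI+Prozac and TBI+Zoloft, where 19.8%, 11.7% and 4.16% of all probes were. It gave 6, 2 and 2 lower, where 623, 548 and 311 of the 17322 probes were. Against TBI, the only call was Adam9, a membrane-bound sheddase, which rose after imipramine by 0.73 (SE 0.16, limma adjusted p = 0.0317), where all probes had a median of 0.199. With the slide as a term its difference was 0.86 and did not pass (limma adjusted p = 0.727), and it passed under 4 of the 10 other settings and in 9 of the 14 fits without an array. Its difference in the reported fit was 0.52 after Prozac (adjusted p = 0.351) and 0.18 after Zoloft (adjusted p = 0.643). Between TBI+Imipramine and TBI+Zoloft the only call was Adam17, at 0.64 (limma adjusted p = 0.0486). All imipramine rats lay above all Zoloft rats, which was not counted over all probes. This call passed under 2 of the 10 other settings and in 4 of the 14 fits without an array. In the test for any difference among the 3 drugs neither gene passed (limma F test, adjusted p = 0.124 for Adam9 and 0.0894 for Adam17).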

How the data were processed

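Whole-hippocampus RNA was amplified, labelled with Cy3 and hybridised to 14 arrays of 1 colour; miRNA arrays of the same series were not used here. Per the file headers, the authors read each scan with Agilent Feature Extraction 11.5.1.1, which removed background and wrote the deposited spot intensity on a linear scale, with flags of another kind for spots above background and for outliers. The deposited series table holds the authors' own scaled intensity and served as an alternative. The methods scaled each array to its 75th percentile and combined an unadjusted t-test p under 0.05 with a fold change over 1.2.

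Outlier-flagged and control spots were dropped and the spots of a probe averaged (Timp1, Mmp9, Mmp14 and Spp1 had up to 10 spots, the others 2). A probe was above background where over 0.5 of its spots were. Of 30367 probes, 17322 were kept, and 18643 matched a symbol of the RefSeq table of assembly GRCr8, which served for names alone, since the array annotation uses another build. Groups came from sample titles. All groups entered 1 fit with lmFit and eBayes (limma 3.58.1, R 4.3.3), two-sided, and p-values were adjusted by the method of Benjamini and Hochberg across the probes kept, with calls under 0.05; the code was tested on simulated data. For Plaur the brighter probe was used. A bound sets a group with no array above background at the lowest level that counted as above background on each array, or at the measured level where that was higher. It takes the mean of the other group as measured and carries no sampling error, so that a smaller rise is possible.

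All 9 genes are named; of the pathway list, up to 3 genes a class with the largest called difference between TBI and Sham, and all called for a drug against TBI. Adam17 and the marker genes called fall outside this rule and were chosen after their values were seen. The 9 genes, the pathway list and the marker lists were chosen with earlier results of these data known. A gene of the pathway list is not reported here and was left out of its counts. Same-numbered rats did not deviate together (26 pairs, r from -0.23 to 0.23, 2 over 0.1), so that numbers were not taken as pairs.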

Additional observations from a re-analysis of the deposited data

How the results depend on the processing

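Of the 9 genes, with Mmp3 counted where a setting let it be tested, the numbers past the threshold against Sham were 6 for TBI and, in the order imipramine, Prozac and Zoloft, 8, 6 and 5. Normexp with an offset of 50, run on the median spot signal because the files used hold no mean signal, compresses dim probes and gave 2, 7, 2 and 2. Probes above background on all arrays, which keeps Timp1 and Mmp14 alone, gave 2, 2, 2 and 1. The replicate block gave 5, 8, 5 and 2. The methods' t-test gave 7, 6, 6 and 2 unadjusted, 1 for TBI+Imipramine vs. TBI and 2 for TBI+Imipramine vs. TBI+Zoloft, and after Benjamini-Hochberg adjustment 0, 5, 0 and 0 against Sham. The pathway list, at 19 for TBI vs. Sham, gave 0 under that adjusted t-test, and 16 with the replicate block. No other setting moved these numbers by more than 1.5 times, but with no filter on dim probes Mmp3 was among the calls against Sham, and of the 8 other genes 3 passed for Zoloft. Leaving out each array in turn gave 3 to 7 for TBI vs. Sham, 4 to 9 for TBI+Imipramine, 1 to 7 for TBI+Prozac and 1 to 5 for TBI+Zoloft, 0 to 2 for TBI+Imipramine vs. TBI+Zoloft, 0 to 1 for any difference among drugs and 9 to 22 for the pathway list. Among these fits Mmp3 was called in that without TBI+Imipramine replicate 3 alone. Against TBI no drug gained a call by leaving out an array. The lowest pathway numbers, 9, came without either Sham array, and the 3 calls of Zoloft against Sham came also without any single TBI, Prozac or imipramine array, Mmp3 not counted. Where an arm was left with 1 rat, it was assumed to vary like the other groups. The cause of these changes was not tested, except that a stricter filter removes genes by construction.

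Every difference of a tested gene from Sham kept its sign. Under normexp the TBI differences of Mmp9, Plau, Plaur and Tnc shrank to 0.52, 0.34, 0.41 and 0.25 and did not pass. Signs turned only in differences between injured groups that had passed no test. With the slide as a term, Timp1 for Zoloft vs. TBI became 0.26, Mmp12 -0.70 for imipramine and -1.16 for Prozac, Mmp14 0.0075 for Zoloft, Plau -0.35 for Prozac and Tnc 0.25 for Zoloft. Under normexp Plau became -0.11 for Prozac and 0.080 for Zoloft, Plaur 0.12 for Zoloft, and Tnc -0.0045 for Prozac and 0.12 for Zoloft. Under quantile normalization Mmp14 became -0.014 for imipramine and -0.12 for Prozac, Plau -0.13 and Tnc -0.18 for Prozac. With the percentile over all probes the same differences were -0.019, -0.13, -0.16 and -0.15, and with the series-table values -0.021, -0.13, -0.21 and -0.15. With outlier-flagged spots kept Plau for Prozac was -0.0039.

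Leaving out each array in turn also turned signs. For TBI+Zoloft vs. TBI the ranges were Timp1 from -0.45 to 0.094, Mmp9 from -0.41 to 0.94, Mmp12 from -2.18 to 0.15, Mmp14 from -0.53 to 0.30, Plau from -0.47 to 0.19, Plaur from -0.89 to 0.14 and Tnc from -0.54 to 0.23. For TBI+Imipramine vs. TBI the ranges were Mmp9 from -0.044 to 0.68 and Mmp14 from -0.20 to 0.55. For TBI+Prozac vs. TBI the ranges were Mmp9 from -0.38 to 0.10, Mmp12 from -0.13 to 2.41, Mmp14 from -0.067 to 0.19, Plau from -0.38 to 0.29, Plaur from -0.49 to 0.041, Tnc from -0.093 to 0.23 and Spp1 from -0.67 to 0.059. For TBI+Imipramine vs. TBI+Zoloft the ranges were Mmp9 from -0.64 to 0.72 and Mmp14 from -0.10 to 0.77.

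With the dimmest genes at the detection limit in Sham, these arrays cannot give the size of their rise, only how far the injured mean lay above that limit. Slide and injury cannot be told apart, and 2 Sham rats 4.28 apart in Spp1 leave that difference loosely fixed.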
